A study of Mus musculus with 14 samples.

Results

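The T-cell receptor gamma (Trg) locus of mouse chromosome 13 was followed in bone marrow erythroid progenitors challenged with erythropoietin (EPO). Its probe sets were 3 picked by their identifiers for their rise with EPO in stage E1 cells, together with every other probe set whose platform symbol names a Trg segment. That gave 5 of the 45037 probe sets tested, 2 of them by symbol alone, and they name 3 of the 19324 genes that the platform annotation names. They are called here by the segment they name and the suffix of their Affymetrix identifier. The 3 picked by identifier are Trgv4-x, Trgv4-a and Trgv4/Trgv2-s, and those chosen by symbol are Trgv4-a2 and Trgv1-a. Each array held RNA from erythroid cells cultured from the marrow of female wild-type C57Bl/6 mice of 8 to 12 weeks. Stage E1 cells (Kit+ CD71+, CFUe-like, taken on day 3 per the labels) gave 4 arrays with EPO and 4 without, and stage E2 proerythroblasts (Kit-depleted, CD71+, taken on day 3.5) gave 3 of each. All cells, unchallenged ones included, were first held for 5.5 h without hematopoietic cytokines. The challenge was EPO at 4 U/mL for 90 min, against carrier in the unchallenged cells, and the arrays are labelled as biological replicates.

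T cells of the gamma delta lineage recognise their targets with a receptor made of a gamma and a delta chain. The gamma chain is encoded by variable (V), joining (J) and constant (C) segments. Of these, V and J segments are cut and joined in T-cell precursors by the Rag recombinase. Before that joining, the unrearranged segments are transcribed as germline transcripts, and in lymphoid precursors this transcription depends on the IL-7 receptor and on Stat5, which binds the locus. The EPO receptor of erythroid cells also signals through Jak2 and Stat5.

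The RefSeq gene table (GRCm38.p6 assembly) lists 15 Trg segments, namely 7 V, 4 J and 4 C. Probe sets named 3 of them, all V segments, and no J or C segment was named by a probe set. Trgv4 was named by 4 of the 5 probe sets and Trgv1 by Trgv1-a. Trgv4/Trgv2-s was annotated to both segments, and the s of its suffix marks probes shared between genes. The x of Trgv4-x marks probes that may also match other sequences, so signal of related segments could not be told apart with these probe sets. No Trg sequence was available in the reference tables used here, and none is printed.

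The deposited values are log2 expression less 1 constant for each probe set. Differences between arrays can be read from them, whereas the level of a gene, or whether a marker is absent, cannot. RNA was from bulk cells, so more Trg RNA per cell and more cells with Trg RNA cannot be told apart. As a check of the stage labels, 7 of 9 measured erythroid marker genes were higher in E2 than in E1 cells without EPO, and 1, Kit, was lower by 3.98 on the log2 scale (adjusted p = 8.7e-08, limma), where 10.1% of all probe sets were called higher and 10.8% lower. Myeloid markers were lower in E2 than in E1 cells in 6 of 9 genes without EPO, with a median change of -4.34. The values of the E2 arrays also lay closer to 0, with a SD over probe sets of 0.259 to 0.295, against 0.633 to 0.736 in the E1 arrays.

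In EPO-challenged E1 cells Trgv4-x had log2 values of 5.95, 4.57, 4.69 and 4.65, against -0.29, -0.02, 0.02 and 0.33 in unchallenged E1 cells. Trgv4-a had 4.51, 3.97, 3.93 and 4.14 with EPO, against 0.09, 0.13, -0.25 and -0.02 without. Trgv4/Trgv2-s had 4.65, 3.88, 3.71 and 4.06 with EPO, against 0.39, -0.07, -0.29 and -0.52 without. In each of these probe sets every challenged array lay above every unchallenged one, and replicate 1 of the EPO-challenged arrays was the highest. This comparison is the one that chose them, so its values are a description and no test is given.

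The E1 change was 4.96 on the log2 scale for Trgv4-x (SE 0.33), or 31.1-fold. It was 4.20 for Trgv4/Trgv2-s (SE 0.26), or 18.3-fold, and 4.15 for Trgv4-a (SE 0.15), or 17.7-fold. Of all 45037 probe sets they held places 4, 8 and 9 from the largest rise. Differences between same-numbered arrays ranged over 4.32 to 6.24 for Trgv4-x, 3.95 to 4.58 for Trgv4/Trgv2-s and 3.84 to 4.41 for Trgv4-a. Without replicate 1 of the EPO-challenged E1 arrays the changes were 4.63, 4.01 and 4.02, or 24.7-, 16.1- and 16.3-fold. For reference, 0.804% of all probe sets were called higher and 0.36% lower with EPO in E1 (362 and 162 probe sets, which became 44 and 17 in a fit with the replicate block), and in 3.28% every challenged array lay above every unchallenged one.

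**Figure D1:**
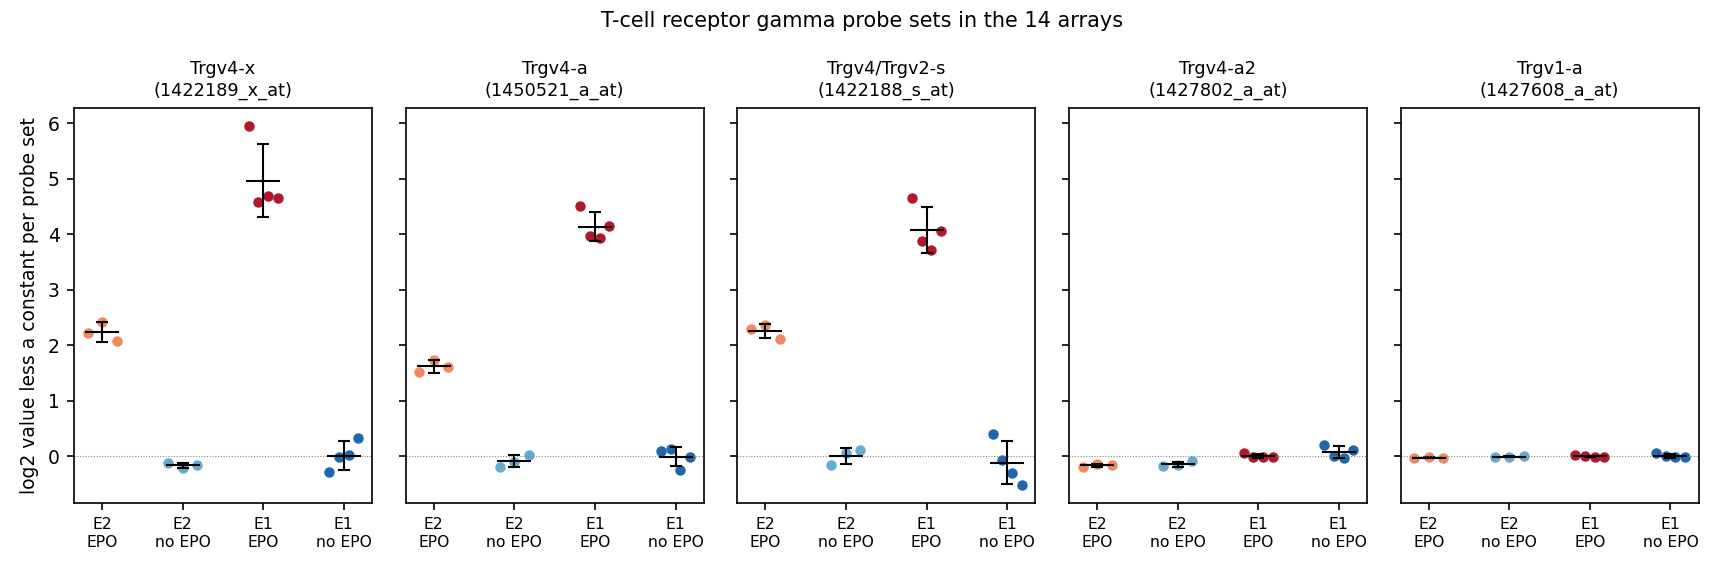
Log2 values, less 1 constant per probe set, of the 5 T-cell receptor gamma probe sets in the 14 arrays. Points are arrays, horizontal marks with bars are group means ± SD (n = 3 in E2 and 4 in E1 groups). The left 3 panels stand between 1.51 and 2.42 in EPO-challenged E2 cells and between 3.71 and 5.95 in EPO-challenged E1 cells, and unchallenged arrays of both stages stay between -0.52 and 0.39. The right 2 panels stay near 0 in all groups.

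The 3 probe sets were picked for their rise in E1, and the EPO change was tested in the E2 arrays. The members were chosen with earlier results of these data known, so the E2 arrays are not a fully independent set. In EPO-challenged E2 cells Trgv4-x had log2 values of 2.21, 2.42 and 2.07, against -0.13, -0.21 and -0.16 in unchallenged E2 cells. Trgv4/Trgv2-s had 2.30, 2.36 and 2.11 with EPO, against -0.16, 0.07 and 0.12 without. Trgv4-a had 1.51, 1.74 and 1.61 with EPO, against -0.19, -0.10 and 0.02 without. Again every challenged array lay above every unchallenged one, which was so in 9.42% of all probe sets, and replicate 2 was the highest challenged array in all 3.

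These 3 probe sets rose with EPO in E2 cells (limma moderated test, Benjamini-Hochberg over 45037 probe sets). The change of Trgv4-x was 2.40 on the log2 scale (SE 0.095), or 5.29-fold (adjusted p = 0.00193). That of Trgv4/Trgv2-s was 2.25 (SE 0.10), or 4.75-fold (adjusted p = 0.00265), and that of Trgv4-a was 1.71 (SE 0.081), or 3.26-fold (adjusted p = 0.00275). The 3 of 5 Trg probe sets called higher were those picked for their E1 rise, and neither of the 2 picked by symbol alone was called. Of all probe sets 2.54% were called higher in this comparison and 2.08% lower. Those shares are no yardstick for probe sets picked for a rise with EPO. The 3 held places 34, 46 and 109 from the largest rise. All 3 passed under each of the 14 alternatives that gave a test, with adjusted p-values up to 0.0475, and under quantile normalization their changes were larger, at 3.84, 3.52 and 2.69.

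The other 2 probe sets gave no such change. Trgv4-a2, the fourth probe set annotated to Trgv4, had log2 values of -0.19, -0.15 and -0.16 in EPO-challenged E2 cells, against -0.18, -0.16 and -0.09 in unchallenged E2 cells. The groups overlapped, and the change was -0.03 (SE 0.0275, adjusted p = 0.747, limma). In E1 cells its values were 0.06, -0.01, -0.01 and -0.02 with EPO, against 0.21, 0.01, -0.03 and 0.11 without, a change of -0.07 given as a description. Trgv1-a, the probe set of Trgv1, lay within a range of 0.0899 over the 14 arrays, and its changes with EPO were -0.01 in E1 and -0.01 in E2 (adjusted p = 0.589 in E2). Its SD over the 14 arrays was 0.0227, and 18.9% of all probe sets had a smaller one. Probe sets annotated to the same gene, Trgv4, thus differed among themselves, with E2 changes between -0.03 and 2.40.

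The 3 probe sets that rose moved together across the arrays. Over the 14 arrays, which share the 4 groups, their pairwise Pearson correlations were 0.991, 0.980 and 0.983. After each group's mean was taken out the correlations were 0.64 for Trgv4-x with Trgv4-a, 0.39 for Trgv4-x with Trgv4/Trgv2-s and 0.78 for Trgv4-a with Trgv4/Trgv2-s. These are descriptions, since probes of one locus can read the same transcripts.

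Between the stages, with the values as deposited, the 3 probe sets that rose were lower in E2 than in E1 cells under EPO, and their arrays overlapped without EPO. In unchallenged cells the change of E2 against E1 was -0.18 for Trgv4-x (SE 0.29), -0.08 for Trgv4-a (SE 0.14) and 0.13 for Trgv4/Trgv2-s (SE 0.24). In EPO-challenged cells it was -2.73 (SE 0.29), -2.52 (SE 0.14) and -1.82 (SE 0.24), with every E2 array below every E1 array, which was also so in 47.1% of all probe sets. The E2 change with EPO came to 48.5%, 41.2% and 53.6% of the E1 change on the log2 scale. The E2 change minus the E1 change was -2.55 (SE 0.41), -2.44 (SE 0.19) and -1.95 (SE 0.33). All of these hold E1 values that chose the probe sets and are given with no test.

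Under quantile normalization the E2 change stayed smaller for Trgv4-a, and the difference turned sign for Trgv4-x and Trgv4/Trgv2-s. This normalization gives all 14 arrays the same distribution and so widens the narrower one of the E2 arrays. The E2 change minus the E1 change was then 0.10 (SE 0.30) for Trgv4-x, -0.50 (SE 0.22) for Trgv4-a and 0.30 (SE 0.32) for Trgv4/Trgv2-s. For those with a turned sign, the stage with the larger EPO change was thus not the same as in the deposited values. The values are less 1 constant per probe set, so the width of an array's distribution also depends on where those constants lie. This alternative therefore cannot decide which stage had the larger EPO change. Myeloid, mast cell, megakaryocyte and erythroid markers also differed between the stages, and their part in the stage difference was not tested.

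The 2 probe sets picked by symbol alone could be tested between the stages. Trgv4-a2 was lower in E2 than in E1 cells, with a change of -0.22 without EPO (SE 0.049, adjusted p = 0.00802, limma) and of -0.17 under EPO (SE 0.049, adjusted p = 0.0281, limma). This 1 of 2 probe sets was thus called lower in each comparison, where 10.8% and 12.0% of all probe sets were. Both calls were lost under an alternative. Without EPO the adjusted p was 0.0708 in a fit on the unchallenged arrays alone, and under EPO it was 0.0993, 0.0587 or 0.0757 without EPO-challenged E2 replicate 1, 2 or 3, 0.0704 without EPO-challenged E1 replicate 1 and 0.0661 with the replicate block. Trgv1-a had adjusted p-values of 0.423 and 0.337.

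The gamma chain reaches the cell surface only with the CD3 proteins, and none of their genes was called. Of Cd3d, Cd3e, Cd3g, Cd247 (the zeta chain) and Ptcra (the pre-T alpha chain), 0 of 5 passed with EPO in E1 or E2, 0 also at an unadjusted p under 0.05 and 0 by the methods' t-test after adjustment. Of all probe sets, 5.02% were higher and 3.82% lower at an unadjusted p under 0.05 in E1, and 7.81% higher and 8.66% lower in E2, so a count of 0 in a list of this size is near the background. Their changes lay between -0.04 and 0.03 in E1 and between -0.01 and 0.01 in E2. The median of their SDs over the 14 arrays was 0.0193, against 0.137 over all probe sets. A set of 24 genes of the receptor complex, its signalling and recombination and of T cells, Rag1, Rag2 and Zap70 among them, gave 0 calls in limma in either stage, with 2 higher at an unadjusted p under 0.05 in E1 and 1 in E2, near the shares of all probe sets, and 0 by the methods' t-test after adjustment. Xrcc4, a DNA repair factor of the joining step, was called higher in E2 without unchallenged replicate 3.

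No marker of another cell type was called with EPO in the values as deposited. Over T cell, NK and innate lymphoid, B cell, myeloid, mast cell and megakaryocyte lists, 0 of 55 genes passed in E1 (2 higher and 2 lower at an unadjusted p under 0.05) and 0 of 55 in E2 (2 higher and 3 lower), and 0 by the methods' t-test after adjustment. The shares called over all probe sets were 0.804% higher and 0.36% lower in E1 and 2.54% and 2.08% in E2, so 0 of 55 says little about the markers. Under alternatives the mast cell gene Hdc was called higher in E1 with array weights, and the platelet genes Gp9 and Pf4 were called lower in E1, Gp9 in the fit on all 14 arrays and Pf4 with array weights, and Pf4 also in E2 under quantile normalization. The T cell markers had a median change of -0.01 in E1 and 0.00 in E2 over 15 of 18 genes measured, where the median of all probe sets was 0.00 in both. Since levels cannot be read, this compares challenged with unchallenged cells and says nothing on how many such cells the preparations held.

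**Figure D2:**
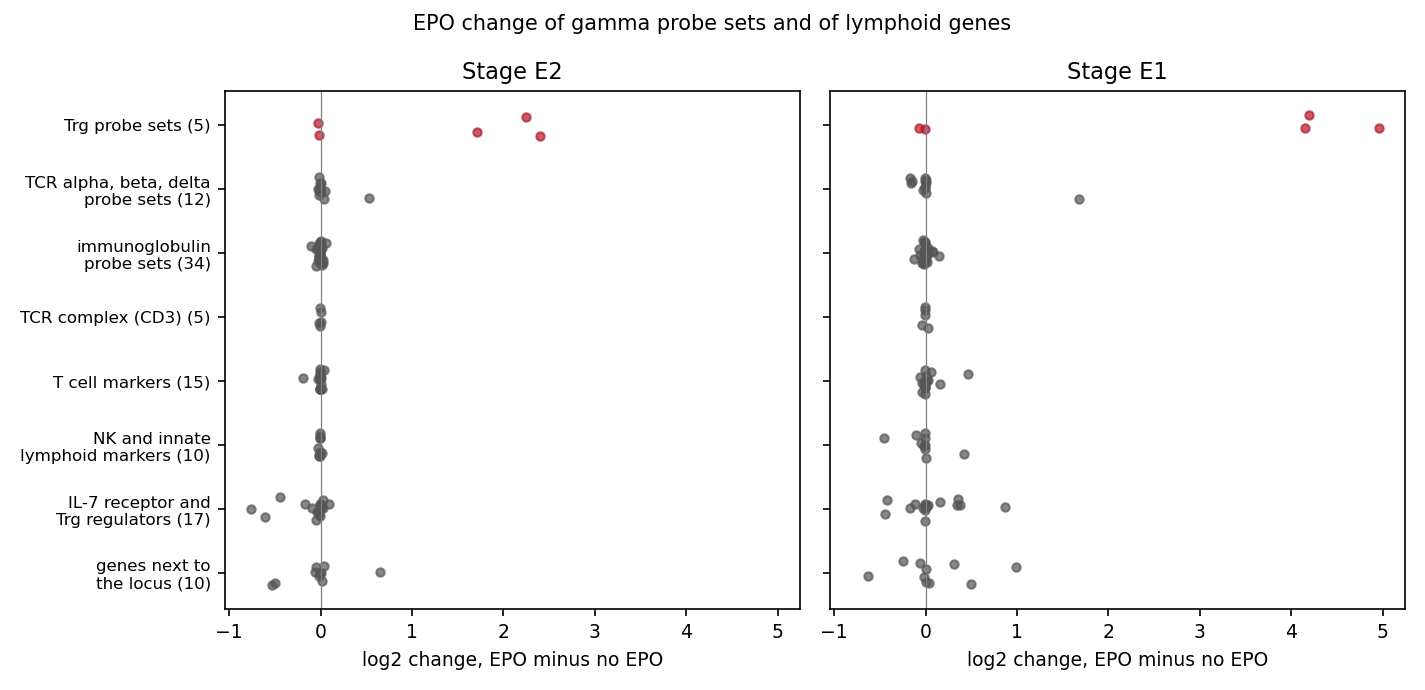
Log2 change with EPO (challenged minus unchallenged) in stage E2 (left) and stage E1 (right), with 1 point per probe set or gene and the number of points in parentheses. Red points are the 5 T-cell receptor gamma probe sets, of which 3 lie between 1.71 and 2.40 in E2 and between 4.15 and 4.96 in E1. The grey groups lie within 1 of 0 except for a single Trbv13-2 probe set at 1.68 in E1.

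The other antigen receptor loci were read by 46 probe sets. The T-cell receptor alpha, beta and delta loci had 12, with changes between -0.17 and 1.68 in E1 and between -0.03 and 0.53 in E2. The immunoglobulin loci had 34, with changes between -0.13 and 0.14 in E1 and between -0.10 and 0.06 in E2. In limma 0 of 46 were called in either stage, with 1 T-cell receptor probe set at an unadjusted p under 0.05 in E1, and 2 T-cell receptor and 1 immunoglobulin probe sets in E2, all higher, where 5.02% and 7.81% of all probe sets were higher at that p in E1 and E2. The methods' t-test called 0 after adjustment.

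A single probe set of these loci, that for the beta-chain variable segment Trbv13-2, stood apart, and it is named here because of its values. It had log2 values of 2.65, 1.58, 0.95 and 1.47 in EPO-challenged E1 cells, against -0.08, -0.09, 0.09 and -0.01 in unchallenged E1 cells. In E2 it had 0.17, 0.52 and 0.65 with EPO, against -0.10, 0.03 and -0.17 without. The groups did not overlap in either stage, as in 3.28% of all probe sets in E1 and 9.42% in E2, and the changes of 1.68 (SE 0.34) and 0.53 (SE 0.14) did not pass (adjusted p = 0.0937 in E1 and 0.144 in E2, limma).

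The genes beside the locus gave no call by the probe set that stood for each gene, but a further probe set of Yae1d1 was called higher in E2. The 5 nearest annotated genes with a probe set on each side were Amph, Vps41, 4930448F12Rik, Yae1d1 and Rala on one side, and Stard3nl, Epdr1, Sfrp4, Nme8 and Elmo1 on the other. Their changes with EPO lay between -0.63 and 0.99 in E1 and between -0.53 and 0.65 in E2. In limma 0 of 10 were called in either stage (1 higher and 1 lower at an unadjusted p under 0.05 in each stage, about the share of all probe sets), with 0 called by the methods' t-test after adjustment. Yae1d1 had log2 values of 1.55, 1.19, 1.80 and 1.35 in EPO-challenged E1 cells, against -0.01, 0.75, 0.65 and 0.55 in unchallenged E1 cells. In E2 it had 0.40, 0.16 and 0.01 with EPO, against -0.30, -0.35 and -0.72 without. The groups did not overlap in either stage, as in 3.28% of all probe sets in E1 and 9.42% in E2. The changes of 0.99 (SE 0.20, adjusted p = 0.0987) in E1 and 0.65 (SE 0.16, adjusted p = 0.123) in E2 did not pass in limma. The E1 change passed in the fit on all 14 arrays (adjusted p = 0.0123), with array weights (0.0186) and among the more variable probe sets (0.0361). The E2 change passed among those (0.0446). Of the other Yae1d1 probe sets, 1 rose by 0.65 in E2 (SE 0.061, adjusted p = 0.0123, limma). In E1 it had 0.76 (adjusted p = 0.217, limma, and 0.0284 in the fit on all 14 arrays). The remaining probe set had 0.00 in E2 and 0.01 in E1. The E2 call was lost in the fit on all 14 arrays (adjusted p = 0.165) and without EPO-challenged E2 replicate 1 (adjusted p = 0.0541). Stard3nl, the nearest gene on its side, had changes of -0.01 in E2 and 0.31 in E1, and Amph, the nearest on the other, 0.01 in E2 and 0.00 in E1.

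Regulators of the locus in lymphoid cells did not pass with EPO either. Measured were 17 genes of the IL-7 receptor pathway and of transcription factors that act on Trg in T-cell precursors, such as Il7r, Stat5a, Stat5b, Sox13, Runx1, Runx3 and Gata3. Of them 0 were called in E1 or E2 by limma, and 0 by the methods' t-test after adjustment. At an unadjusted p under 0.05 in limma, 1 was higher in E1 and 0 in E2, near the shares of all probe sets for a list of this size. Jak1 was called higher in E1 among the more variable probe sets alone and without EPO-challenged replicate 3, and Jak1 and Ikzf1 were called lower in E2 without EPO-challenged replicate 3. Between the stages without EPO, 1 of the 17 genes was called higher in E2 and 3 lower, where 10.1% and 10.8% of all probe sets were. With any probe set of a gene counted, 2 were called higher and 7 lower. By the probe set that stood for it among its 6, Runx1, a core factor of blood progenitors, was higher in E2 by 1.63 on the log2 scale (adjusted p = 0.0341, limma). Lower in E2 were Myb, a factor of immature progenitors (-3.25, adjusted p = 2.6e-07), Runx3 (-1.28, adjusted p = 0.000359) and Tcf12 (-0.81, adjusted p = 0.0328). The calls of Runx1 and Tcf12 were lost in a fit on the unchallenged arrays alone (adjusted p = 0.12 and 0.116) and without any single unchallenged E2 array, that of Runx1 also without unchallenged E1 replicate 2 and that of Tcf12 without unchallenged E1 replicate 2, 3 or 4 or with the replicate block. Of 8 genes of the EPO receptor and its JAK-STAT path, Stat3 alone was called, in E2 (2.54% of all probe sets), with a rise of 0.84 (adjusted p = 0.0463) that was lost with the replicate block, in the methods' t-test after adjustment and on leaving out any array other than unchallenged E2 replicate 3. Under alternatives Jak2 was called lower and Sh2b3, which encodes an adaptor that restrains cytokine receptors, higher in E1 in the fit on all 14 arrays and with array weights, Sh2b3 also among the more variable probe sets. In E2 Jak2 was called lower with array weights and Sh2b3 higher without unchallenged replicate 3.

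Known Stat5 target genes gave the setting in which the Trg change stood. Of 18 measured, 8 rose, 1 fell and 9 did not pass in E1, and 9 rose, 2 fell and 7 did not pass in E2, where 0.804% and 0.36% of all probe sets were called higher and lower in E1 and 2.54% and 2.08% in E2, with median changes of 1.15 and 0.88 where that of all probe sets was 0.00. In the paired fit of E1, by replicate number, 4 rose and 0 fell in E1 (Cish, Osm, Podxl and Ccnd2). In E2, where same-numbered arrays did not deviate together, that block left 5 higher and 0 lower. Cish, a feedback inhibitor of cytokine receptors, rose by 4.02 in E2 (SE 0.066, adjusted p = 0.000281) and 5.35 in E1 (SE 0.15, adjusted p = 7.4e-05). Osm, which encodes the cytokine oncostatin M, rose by 5.39 in E2 (SE 0.092, adjusted p = 0.000281) and 5.12 in E1 (SE 0.24, adjusted p = 0.000788).

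Ccnd2, a G1 cyclin, rose by 3.30 in E2 (SE 0.17, adjusted p = 0.00286) and 3.43 in E1 (SE 0.15, adjusted p = 0.000632). Podxl, a sialomucin of the cell surface, rose by 3.93 in E2 (SE 0.22) and 4.99 in E1 (SE 0.34), and Myc, a growth regulator, by 3.35 in E2 (SE 0.062) and 2.59 in E1 (SE 0.26). Socs3, another feedback inhibitor, rose by 5.61 in E2 (SE 0.15) and by 2.70 in E1 (SE 0.18). Pim1, a survival kinase, rose by 0.95 in E2 (SE 0.062, adjusted p = 0.00485) and 3.23 in E1 (SE 0.27, adjusted p = 0.0048). By a test of the difference itself the E2 change was smaller than the E1 change for Cish and Pim1 and larger for Socs3, where 0.235% and 0.18% of all probe sets were called lower and higher, but the sign for Cish turned under quantile normalization and its call was lost with the replicate block (adjusted p = 0.0762). That of Pim1 (-2.28, SE 0.34, adjusted p = 0.0181) was lost under quantile normalization (-0.67, adjusted p = 0.253), with the replicate block (adjusted p = 0.175) and without EPO-challenged or unchallenged E2 replicate 1 (adjusted p = 0.0529 and 0.053). Quantile normalization widens the E2 arrays, so it cannot decide these stage differences. The 3 Trg probe sets, with changes of 1.71 to 2.40 in E2, lay below 7 of the 9 targets that rose there and above Pim1 (0.95) and Id1 (1.22). With 4.15 to 4.96 in E1 they lay between Socs2 (3.84) and Podxl (4.99). The E2 calls of Pim1 and Id1 were both lost in the fit on all 14 arrays and with the replicate block. That of Id1 was also lost without any unchallenged E2 array or without EPO-challenged E2 replicate 2.

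**Figure D3:**
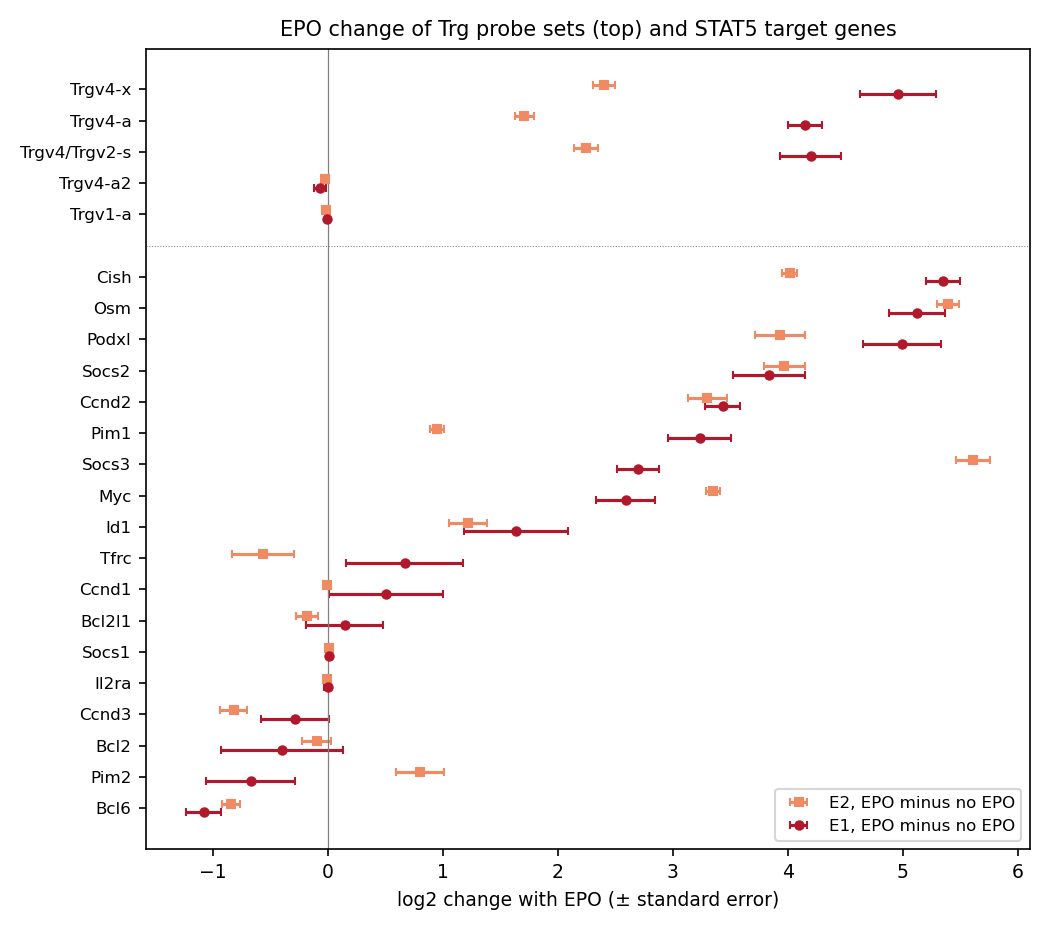
Log2 change with EPO (challenged minus unchallenged, ± standard error from limma) of the 5 T-cell receptor gamma probe sets (top) and of 18 Stat5 target genes, in E2 (squares) and E1 (circles). For 3 gamma probe sets the E2 point lies left of the E1 point, at 1.71 to 2.40 against 4.15 to 4.96, and Osm lies at 5.39 in E2 and 5.12 in E1.

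The genes most like the Trg probe sets were sought by Pearson correlation over the 14 arrays with the mean of the 3 probe sets that rose. The 10 highest were Aen (0.989), Dimt1 (0.978), Pim3 (0.967), Lnx2 (0.962), 1700097N02Rik (0.960), Bag5 (0.959), Rps10 (0.956), Phtf2 (0.954), Timm10 (0.954) and Podxl (0.952). Aen encodes an exonuclease of apoptosis, Dimt1 a ribosomal RNA methyltransferase, Pim3 a survival kinase, Bag5 a cochaperone, Rps10 a ribosomal protein and Timm10 a mitochondrial import factor. Being chosen on these values, they get no test. Aen, first in the order, changed by 0.78 in E2 (SE 0.045) and 1.70 in E1 (SE 0.098). Its E2 change was 46.0% of its E1 change, next to 41.2% to 53.6% for the Trg probe sets. A choice by correlation over the same groups favours such a likeness. For the others of the 10 this share ranged from 39.0% (1700097N02Rik) to 78.7% (Podxl). The choice rested on the pattern over the stages, since the 6 E2 arrays alone gave 10 genes of which 0 were shared, and Spearman correlation gave 4 shared.

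**Figure D4:**
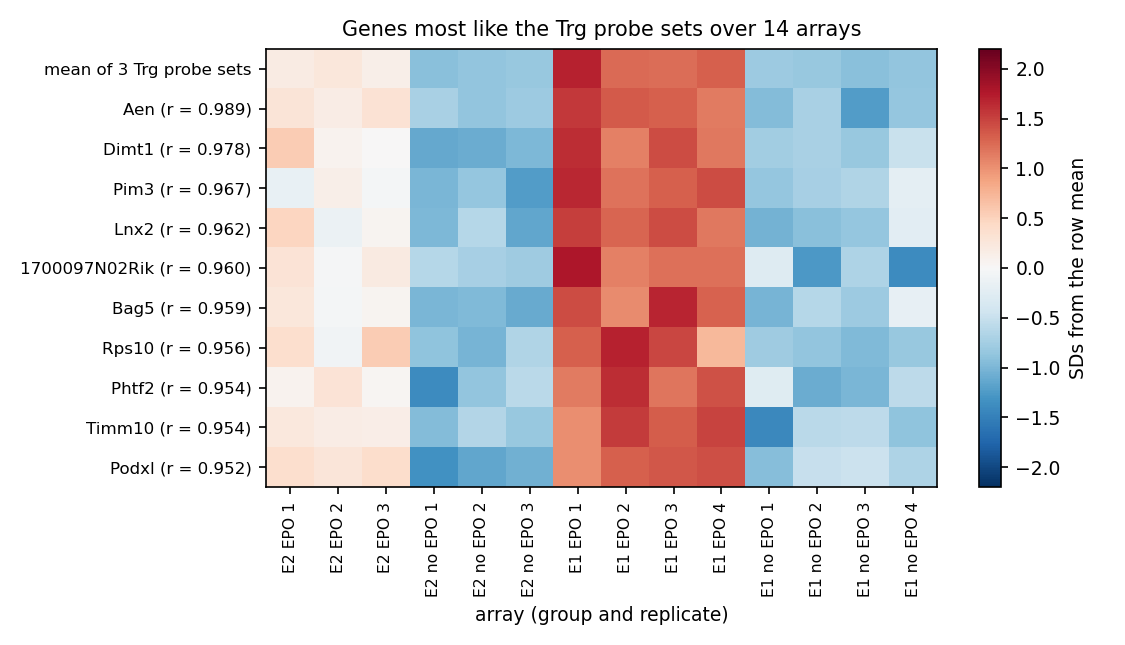
Values of the mean of 3 T-cell receptor gamma probe sets (top row) and of the 10 genes most like it, in SDs from each row's mean over the 14 arrays, with arrays as columns. Red marks values above and blue values below the row mean. All rows are highest in the 4 EPO-challenged E1 arrays and intermediate in the 3 EPO-challenged E2 arrays, and r is the Pearson correlation with the top row.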

How the data were processed

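RNA of 14 samples was hybridised to Affymetrix mouse arrays. Per the methods, the authors used GCOS for the scans and GeneSpring GX for GC-RMA. The deposited values are log2 (the base is inferred) less 1 constant per probe set: in 35174 of the probe sets (78.0%) a value above 0 and a value below 0 were of equal size to within 2e-06. Levels are therefore lost. Precision depends on how many arrays a group has and on the spread between them. The median SD within a group was 0.0729 to 0.0934 in E1 and 0.0317 to 0.0343 in E2. The genome build behind the array annotation is not given in the sources used here. The RefSeq table (GRCm38.p6) served for names and gene order alone, and no coordinates are printed.

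The table holds 45101 probe sets, 64 of them array controls, which were left out. Each comparison was fitted in limma 3.58.1 (R 4.3.3), two-sided, with Benjamini-Hochberg adjustment over 45037 probe sets and an adjusted p under 0.05 as passed. EPO comparisons used the arrays of 1 stage, stage comparisons and the difference of changes all 14. The methods' t-test was one-tailed and unpaired. Its tail was taken here in the direction of each difference, so its counts are more lenient than those of a two-sided test at the same threshold. Fits were tested on simulated data.

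Platform annotation named 1 gene for 34945 probe sets, several for 932 and none for 9160. A gene was represented by its probe set with the largest SD over the 14 arrays. Named genes were every Trg probe set, up to 4 list members with the smallest p among those that passed in each contrast, the 10 genes most like the Trg mean, and the 5 nearest genes on each side. The members and lists were chosen with earlier results of these data known. In E1, challenged and unchallenged arrays of the same replicate number deviated together (correlations 0.195, 0.187, 0.173 and 0.152), so the numbers were taken to pair them. Pairs of unlike number ranged from -0.236 to 0.203, the highest being EPO-challenged replicate 3 with unchallenged replicate 4. The pairing is therefore an assumption. Alternatives were quantile normalization, median centring, the replicate block, other sets of arrays, trend and robust options, array weights, the methods' t-test, a filter on SD and leaving out each array.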

Additional observations from a re-analysis of the deposited data

Results flagged for a closer look

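Of 10 groups of 4 arrays examined for the Trg probe sets, 2 held an array far from the others, and chance alone gives about 1 in 20 groups. For Trgv4-x, EPO-challenged E1 replicate 1 stood at 5.95 and the others between 4.57 and 4.69, a gap of 0.917 of the group's range. For Trgv4-a2, the same array stood at 0.06 and the others between -0.02 and -0.01, a gap of 0.845 of the range.

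3 named Stat5 target genes had EPO changes that differed between the stages by the test of the difference itself. The E2 change minus the E1 change was -1.33 for Cish (SE 0.19, adjusted p = 0.0152, limma), -2.28 for Pim1 (SE 0.34, adjusted p = 0.0181, limma) and 2.91 for Socs3 (SE 0.26, adjusted p = 0.000675, limma). Under quantile normalization the difference was 3.05 for Cish, with the sign turned, -0.67 for Pim1, which no longer passed, and 7.70 for Socs3. That normalization also moved the difference of Ccnd2 from -0.13 to 3.22 and that of Osm from 0.27 to 5.73. Since it widens the E2 arrays, it cannot decide which stage had the larger EPO change. With the replicate block, whose numbers were taken to pair the E1 arrays, Cish (adjusted p = 0.0762) and Pim1 (adjusted p = 0.175) did not pass, and Socs3 did.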

How the results depend on the processing

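The EPO rise of the 3 Trg probe sets in E2 kept its direction and passed under every alternative run, with changes without 1 array of 2.31 to 2.48 for Trgv4-x, 2.16 to 2.32 for Trgv4/Trgv2-s and 1.65 to 1.76 for Trgv4-a. The labels do not say whether replicate numbers pair the E2 arrays, and same-numbered E2 arrays did not deviate together (correlations -0.061, -0.057 and -0.016). With the replicate numbers as a block the adjusted p-values in E2 were 0.042, 0.0475 and 0.0395 (limma). In E1 the changes with the block were 4.96, 4.20 and 4.15. It could not move them, since each replicate number holds a challenged and an unchallenged array.

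Quantile normalization moved the E1 changes to 3.75 (Trgv4-x), 3.22 (Trgv4/Trgv2-s) and 3.19 (Trgv4-a). In the same order it moved the E2 against E1 change under EPO to -0.30, 0.39 and -0.65, and the difference of the EPO changes to 0.10, 0.30 and -0.50. For Trgv4-a2 the stage change was -0.22 (adjusted p = 0.0708) on the unchallenged arrays alone, and under EPO -0.17 (adjusted p = 0.0661) with the replicate block and -0.18 to -0.15 without 1 array.

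Probe sets called higher and lower with EPO in E1 numbered 44 and 17 with the replicate block, 1063 and 632 in a fit on all 14 arrays, 1128 and 762 with array weights, and 2824 and 2370 by the unadjusted t-test. Restricting the fit to the more variable probe sets (those above the median SD) gave 599 higher, and leaving out 1 array gave 150 to 365 higher and 55 to 156 lower. In E2 the counts were 264 and 153 with the block, 611 and 388 on all 14 arrays, 4100 and 5639 by the unadjusted t-test, 1877 and 1697 with the more variable probe sets, and 504 to 843 and 330 to 546 without 1 array. Array weights gave 7962 lower in E2 against E1 without EPO and 12964 under EPO, and without 1 array the count under EPO was 3996 to 9682, the highest without unchallenged E1 replicate 1. The difference of the EPO changes was 3.05 for Cish under quantile normalization, against -1.33. With any probe set of a gene counted, 2 JAK-STAT genes rose in E2 in place of 1. Between the stages without EPO, Trg regulators called higher in E2 were then 2 in place of 1, and those called lower 7 in place of 3. The causes were not tested.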
